A study of Rattus norvegicus with 12 samples.

Results

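The genes described here are the enzymes that build cholesterol and fatty acids and the proteins that control them, followed in rat cardiac progenitor cells placed on different surfaces. They were chosen by symbol from a list of 32 rat genes. The rule uses no measured value, but the list was drawn up with earlier results of these data known. A row of counts was matched for 30 of the 32, out of 16924 genes in all, and all 30 had enough counts to be tested. Mvk and Fasn, the other two, were not analysed here.

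The cells came from a clone of rat cardiac progenitor cells, multiplying heart-derived cells first isolated by the receptor Kit. The clone was grown in F12 medium with 10% fetal bovine serum, leukemia inhibitory factor, basic fibroblast growth factor, erythropoietin and glutathione. The study compared 4 groups of 3 libraries: cells in suspension, and cells on dishes coated with fibronectin, coated with laminin, or left with no coating. Fibronectin and laminin are matrix proteins that cells grip through integrin receptors. According to the labels the cells were seeded sparsely, so that they did not touch, and kept for 2 h in 0.1% serum before RNA was taken. The same text stands on the suspension libraries, and it does not say how those cells were held. By the labels all groups share the clone, the growth factors beforehand and the low serum. Whether the low-serum step was applied to the suspension cells in the same way cannot be told from that text. Replicates 1, 2 and 3 of each group are numbered as batches 1, 2 and 3. No donor or animal differs between replicates, so each p-value measures variation within 1 clone. In fits without batch in the model that variation includes shifts shared by a batch. In fits with batch those shifts are removed, and what remains is how group differences varied between batches.

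Cholesterol synthesis starts from acetyl-CoA and runs through mevalonate to farnesyl diphosphate, then through squalene and lanosterol to cholesterol. Most of its genes are switched on by the transcription factor SREBP-2, encoded by Srebf2, while SREBP-1, encoded by Srebf1, acts more on fatty acid genes. Scap escorts both proteins to the Golgi for activation, and Insig proteins hold Scap back in the endoplasmic reticulum when sterols are plentiful. Insig1 is itself an SREBP target, so its RNA is often read together with those of the enzymes.

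Promoter sequence is shown for Hmgcs1, Insig1 and Msmo1, the members with the clearest difference between surfaces. Each line gives the 250 bases before the RefSeq transcription start, 5′ to 3′ on the gene's strand, in build GRCr8, with capitals marking the motif CCAAT or its reverse complement ATTGG, the recognition sequence of the factor NF-Y. Hmgcs1 lies on the plus strand at chr2:53382054-53382303, Insig1 on the minus strand at chr4:8057770-8058019, and Msmo1 on the plus strand at chr16:29746863-29747112.
Hmgcs1: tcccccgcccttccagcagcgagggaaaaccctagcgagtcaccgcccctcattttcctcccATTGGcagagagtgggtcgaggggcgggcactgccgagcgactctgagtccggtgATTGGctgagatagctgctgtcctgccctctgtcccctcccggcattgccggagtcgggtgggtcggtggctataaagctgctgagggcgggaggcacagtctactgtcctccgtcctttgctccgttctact
Insig1: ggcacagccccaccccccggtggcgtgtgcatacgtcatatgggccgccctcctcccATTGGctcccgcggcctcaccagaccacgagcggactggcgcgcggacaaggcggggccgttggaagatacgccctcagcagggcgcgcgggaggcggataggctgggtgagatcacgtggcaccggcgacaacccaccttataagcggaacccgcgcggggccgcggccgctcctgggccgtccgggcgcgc
Msmo1: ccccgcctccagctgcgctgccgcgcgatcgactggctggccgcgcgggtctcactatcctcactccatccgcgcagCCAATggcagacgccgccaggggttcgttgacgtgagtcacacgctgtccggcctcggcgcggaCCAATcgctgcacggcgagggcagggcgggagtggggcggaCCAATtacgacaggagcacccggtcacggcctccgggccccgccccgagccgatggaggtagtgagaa

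The windows held 2 matches in Hmgcs1, 1 in Insig1 and 3 in Msmo1. RefSeq promoters were matched for 24 of the 30 members, with none at hand for Sqle, Fdft1, Pmvk, Stard4, Acaca and Elovl6. CCAAT on either strand was present in 18 of the 24 (75.0%), against 36.1% of the 8226 tested genes with a promoter. The GC box GGGCGG was present in 20 of 24 (83.3%), against 60.6%, and the E box CACGTG in 3 of 24 (12.5%), against 8.42%. Each motif was counted on its own, and matches of different motifs can share bases. Both strands were searched, and a match is a description of the letters only.

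Libraries held between 15875160 and 20852160 counts, and levels below are CPM, the count scaled to a common library total. CPM is not corrected for gene length, so levels are compared between libraries and not between genes. Members had between 1652 and 150044 counts summed over the 12 libraries. Differences were tested with edgeR's quasi-likelihood test over 10020 genes, with Benjamini-Hochberg adjustment over all of them and a threshold of 0.05, once without and once with batch as a block. Log2 changes are given ± SE. Vim and the other mesenchymal markers summed to between 6289 and 7585 CPM and the cardiac progenitor list to between 137 and 177 CPM, with Gata4 and Gata6 present, Kit between 2.39 and 3.68 CPM and Tbx20 at 0. The mesenchymal marker Thy1 stood at no more than 0.181 CPM. Smooth muscle markers summed to between 164 and 227 CPM, with Tagln between 155 and 220 CPM and Cnn1 at no more than 0.302 CPM. Cardiomyocyte markers summed to between 1.57 and 6.32 CPM with Nkx2-5 and Myh7 at 0, endothelial markers to between 1.16 and 2.40, blood markers to between 0.690 and 1.33, adipocyte markers to between 0.378 and 1.15 and hepatocyte markers to at most 0.115 CPM. In bulk RNA, fewer cells of a type and less RNA per cell cannot be told apart.

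**Figure D1:**
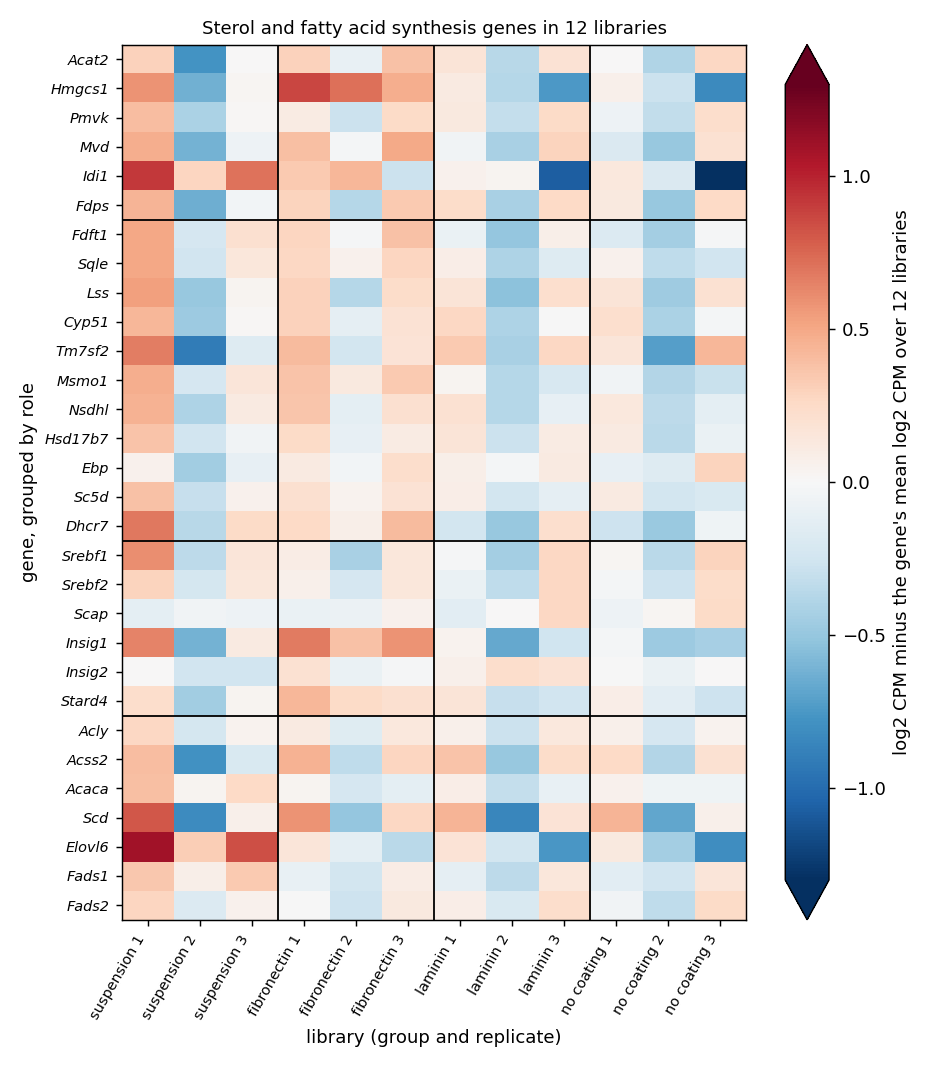
Rows are the 30 genes grouped by role (from top: mevalonate pathway, squalene to cholesterol, regulators and sterol carrier, fatty acid synthesis), columns the 12 libraries, and colour each gene's log2 CPM minus its mean over the 12 libraries. Replicate 2 is mostly blue in every group and suspension 1 is mostly red. Most genes are redder in a fibronectin library than in the laminin and uncoated libraries of the same batch.

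Within a batch, most members ran higher on fibronectin than on the other surfaces. Acaca and Scap went the other way against uncoated plastic in all 3 batches by CPM, and Fads2 against laminin. By CPM, 21 of the 30 were higher on fibronectin than on uncoated plastic in all 3 batches, against 13.0% of all tested genes, and 19 were lower on laminin than on fibronectin in all 3 batches, against 13.5%. The median log2 change of the 30 was 0.19 for fibronectin minus no coating, with 27 positive, and -0.15 for laminin minus fibronectin, with 27 negative. The medians over all tested genes were 0.00 and -0.01. These comparisons share the fibronectin libraries, so they are not separate evidence. With TMM-scaled CPM the counts were 21 and 22. Without overlap between the groups stood 6 members for fibronectin and no coating, against 5.97% of all genes, and 4 for laminin and fibronectin, against 6.05%.

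The calls depended on whether batch was in the model. Without it, edgeR called none of the 30 in laminin minus fibronectin or in fibronectin minus no coating, where 0.150% and 0.180% of all tested genes were called. At an unadjusted p under 0.05 there were 5 and 6 members, and DESeq2 called 0 in each. With the batch block, Insig1 and Msmo1 were lower on laminin than on fibronectin, where 0.369% of all genes were, and higher on fibronectin than on uncoated plastic, where 0.389% were. Insig1 lost both calls without any 1 of the libraries compared, and Msmo1 kept the first in 1 and the second in 2 of the 6 fits that each left out 1 library. A fit with the block to the 9 attached libraries alone, chosen after the data were seen, called 10 members lower on laminin than on fibronectin (1.80% of 9975 genes) and 11 higher on fibronectin than on uncoated plastic (1.41%). Of the members called in that fit, only Insig1 and Msmo1 passed between surfaces with all 12 libraries, unblocked or blocked. In the attached-library fit the call counts fell to 4 and 4 without fibronectin replicate 2. They fell to 4 or 5 without laminin replicate 2 or 1 in the first comparison, and to 7 without uncoated replicate 2 in the second. Leaving out batch 2 altogether left 2 and 3. Hmgcs1 and Insig1 passed in each of these reduced fits, and Fdft1 and Msmo1 in each fit that left out 1 library. The suspension libraries enter the 12-library fits between surfaces only through the shared spread and batch terms. Over all tested genes their batch deviations followed the attached libraries of the same batch only weakly (median correlation 0.197, against 0.675 among attached libraries). That correlation was not taken over the members alone. Their median log2 CPM, relative to each gene's mean, was lowest in replicate 2 in suspension (-0.35), on fibronectin (-0.11), laminin (-0.37) and uncoated plastic (-0.34).

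The mevalonate arm runs from acetyl-CoA to farnesyl diphosphate, and Hmgcs1, which makes HMG-CoA, differed most. Hmgcs1 stood at 868, 779.9 and 660.1 CPM on fibronectin in batches 1, 2 and 3, the order used for every set of 3 values below. It stood at 515, 367 and 284 CPM on laminin and at 499, 393 and 269 CPM on uncoated plastic. Every fibronectin library was above every laminin and uncoated library, while suspension, at 713, 309 and 483 CPM, overlapped with all of them. In the attached libraries with the block, Hmgcs1 fell by 1.06 ± 0.0874 on laminin against fibronectin (edgeR adjusted p = 0.000237) and rose by 1.05 ± 0.0875 on fibronectin against no coating (0.000207). In the 12-library fits the same changes of Hmgcs1 had edgeR adjusted p-values of 0.824 and 0.749 without the block and 0.0713 and 0.0714 with it.

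Idi1, the isomerase that interconverts the isoprenoid building blocks, was lower on every surface than in suspension in batches 1 and 3. It stood at 290.4, 187 and 251 CPM in suspension, at 195, 207 and 127 on fibronectin, at 161, 158 and 73.1 on laminin and at 169, 135 and 59.5 on uncoated plastic. The laminin and uncoated libraries lay below every suspension library, and batch 3 was the lowest batch on each surface. With the block, Idi1 changed by -1.005 ± 0.276 on laminin and by -1.12 ± 0.278 on uncoated plastic against suspension (edgeR adjusted p = 0.0178 and 0.0139), and without it neither passed (0.138 and 0.128). The blocked calls were lost without laminin replicate 1 or 3 and without uncoated replicate 3. On fibronectin against suspension its change was -0.50 ± 0.272 with an adjusted p of 0.191 in the blocked edgeR fit. Within the attached libraries Idi1 rose by 0.64 ± 0.129 on fibronectin against no coating (edgeR adjusted p = 0.0331), a call lost without fibronectin replicate 2 or uncoated replicate 2 or 3, and its change of -0.52 ± 0.128 on laminin against fibronectin had an adjusted p of 0.0774.

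Acat2, which joins acetyl-CoA units at the head of the pathway, stood at 59.4, 28.2 and 48.4 CPM in suspension and at 59.2, 45.2 and 62.8 on fibronectin. Its laminin libraries stood at 54.0, 37.4 and 54.7 CPM and its uncoated libraries at 48.2, 36.8 and 58.0. The groups overlapped, and in batch 1 suspension and fibronectin were nearly equal. With the block Acat2 rose by 0.37 ± 0.109 on fibronectin against suspension (edgeR adjusted p = 0.0317), a call seen in 1 of the 6 fits that each left out 1 library and not with library totals alone. Mvd, the decarboxylase that yields isopentenyl diphosphate, stood at 80.2, 60.1 and 86.4 CPM on fibronectin, at 59.4, 45.9 and 75.0 on laminin and at 53.9, 43.7 and 70.6 on uncoated plastic. In the attached libraries Mvd fell by 0.38 ± 0.0616 on laminin against fibronectin (edgeR adjusted p = 0.0126) and rose by 0.46 ± 0.0622 on fibronectin against no coating (0.00412). Both calls were lost without fibronectin replicate 2, and the first also without laminin replicate 1 or 2. Pmvk, a mevalonate pathway kinase, and Fdps, which makes farnesyl diphosphate, passed in no comparison in the unblocked, blocked or attached-library fits, with changes of 0.10 ± 0.0603 and 0.14 ± 0.0412 for fibronectin minus no coating in the last. Without suspension replicate 1 the blocked fit called Fdps higher than suspension on all 3 surfaces.

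Between squalene and cholesterol, the methyl sterol oxidase Msmo1 showed the clearest separation. Msmo1 stood at 888, 748 and 866 CPM on fibronectin, at 703, 531 and 592 on laminin and at 663, 527 and 560.3 on uncoated plastic. Its suspension libraries, at 949.8, 589 and 764 CPM, spanned the gap between those groups, and the lowest fibronectin library was above the highest laminin and uncoated libraries. With the block over 12 libraries Msmo1 fell by 0.49 ± 0.0711 on laminin against fibronectin (edgeR adjusted p = 0.0201) and rose by 0.54 ± 0.0711 on fibronectin against no coating (0.0107). Without the block the edgeR adjusted p-values for Msmo1 were 0.976 and 0.67. Msmo1 also fell against suspension with the block, by 0.32 ± 0.0710 on laminin and by 0.36 ± 0.0711 on uncoated plastic (edgeR adjusted p = 0.0076 and 0.00567), and on fibronectin its change was 0.18 ± 0.0709 (0.0879).

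Fdft1 makes squalene and Sqle oxidises it, the step often held to limit flux after mevalonate. Fdft1 stood at 335, 203 and 273 CPM in suspension, at 286, 233 and 307 on fibronectin, at 222, 166 and 248 on laminin and at 208, 173 and 233 on uncoated plastic. Sqle stood at 230.0, 136 and 179.5 CPM in suspension, at 195, 168 and 197 on fibronectin, at 172, 123 and 144 on laminin and at 168, 129 and 137 on uncoated plastic. Both genes were lower on laminin and on uncoated plastic than in suspension in all 3 batches, by blocked changes of -0.34 ± 0.0807 and -0.37 ± 0.0808 for Fdft1 and of -0.29 ± 0.0845 and -0.29 ± 0.0846 for Sqle. All 4 changes passed in the blocked edgeR fit, with adjusted p-values of 0.00983 and 0.00877 for Fdft1 and of 0.021 and 0.0247 for Sqle. The Fdft1 calls held whichever 1 library was left out and were lost without batch 2, and those of Sqle held in 2 and 3 of 6 such fits. Among the attached libraries, Fdft1 fell by 0.42 ± 0.0483 and Sqle by 0.40 ± 0.0646 on laminin against fibronectin (edgeR adjusted p = 0.00143 and 0.0125), and the Sqle call held in 2 of 6 such fits.

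Dhcr7, the reductase of the last step, stood at 84.4, 40.8 and 62.2 CPM in suspension, at 62.8, 55.2 and 70.0 on fibronectin, at 44.6, 37.2 and 61.2 on laminin and at 43.5, 37.5 and 50.6 on uncoated plastic. The fibronectin libraries lay above all 3 uncoated libraries and overlapped with the laminin libraries. Dhcr7 rose by 0.54 ± 0.0738 on fibronectin against no coating within the attached libraries (edgeR adjusted p = 0.00428), and fell by 0.46 ± 0.154 on uncoated plastic against suspension in the blocked 12-library fit (0.0403). The first call was lost without fibronectin replicate 2, and the second held in 2 of 6 fits that each left out 1 library. On laminin against fibronectin Dhcr7 fell by 0.45 ± 0.0729 in the attached libraries (edgeR adjusted p = 0.0124). This call held in 3 of 6 such fits. In the blocked 12-library fit Dhcr7 had edgeR adjusted p-values of 0.53 for laminin minus fibronectin and 0.277 for fibronectin minus no coating. Nsdhl and Sc5d, a sterol decarboxylase and a sterol desaturase, fell on laminin against fibronectin in the attached libraries by 0.28 ± 0.0504 and 0.28 ± 0.0567 (edgeR adjusted p = 0.0202 and 0.0372). Sc5d lost that call when library totals alone scaled the counts, and each of the pair kept it in 2 of 6 fits leaving out 1 library.

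Ebp, the sterol isomerase, differed in another comparison. It stood at 48.4, 34.2 and 43.4 CPM in suspension, at 50.8, 45.7 and 54.9 on fibronectin, at 49.3, 46.0 and 50.7 on laminin and at 43.5, 41.8 and 57.0 on uncoated plastic. Fibronectin was the higher of the pair with suspension in all 3 batches, and the groups overlapped. Ebp rose by 0.31 ± 0.0902 on fibronectin against suspension with the block (edgeR adjusted p = 0.0327), a call absent with library totals alone and present in 1 of 6 fits leaving out 1 library. The other members of this arm passed in no comparison in the unblocked, blocked or attached-library fits: Lss, which closes the sterol ring, Cyp51, which removes a methyl group from lanosterol, Hsd17b7, a sterol ketone reductase, and Tm7sf2, a sterol reductase. Their changes for fibronectin minus no coating lay between 0.10 ± 0.0466 for Lss and 0.22 ± 0.0490 for Cyp51 in the attached libraries. Over the arm, all 11 members had positive estimates for fibronectin minus no coating and negative ones for laminin minus fibronectin, with 6 passing in each comparison in the attached libraries.

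**Figure D2:**
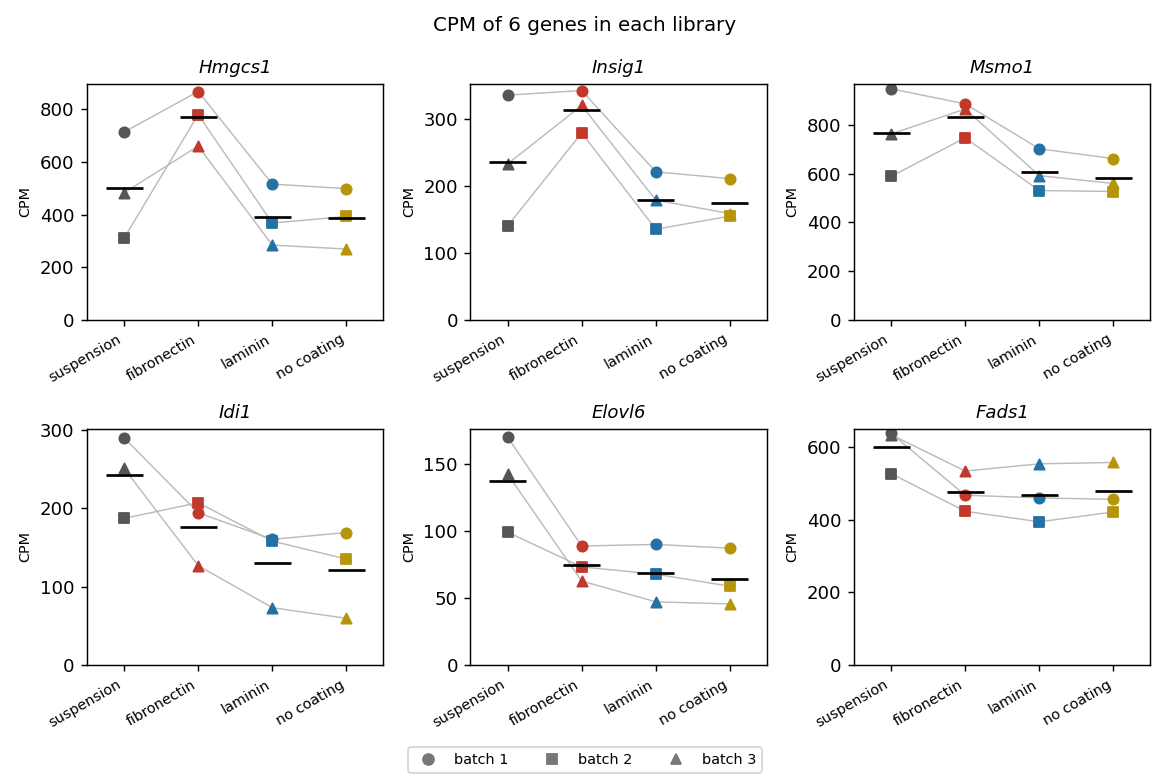
Each panel shows 1 gene, with CPM on the vertical axis from 0, a point per library (shape for batch, grey lines joining a batch) and a black bar at the group mean. Hmgcs1, Insig1 and Msmo1 are higher on fibronectin than on laminin or uncoated plastic in every batch, while Elovl6 and Fads1 are below suspension on all 3 surfaces in every batch.

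Among the regulators, Insig1 carried the difference and the SREBP genes did not. Insig1 stood at 343, 279.5 and 321 CPM on fibronectin, at 221, 135 and 179 on laminin, at 211, 155 and 159 on uncoated plastic and at 336, 140.1 and 233 in suspension. The fibronectin libraries were above all laminin and uncoated libraries, and the suspension libraries ranged across both. With the block Insig1 fell by 0.88 ± 0.144 on laminin against fibronectin, rose by 0.87 ± 0.144 on fibronectin against no coating and rose by 0.52 ± 0.143 on fibronectin against suspension (edgeR adjusted p = 0.0397, 0.0365 and 0.0258). The call against suspension was lost without suspension replicate 2 or fibronectin replicate 2 or 3. In the attached libraries Insig1 changed by -0.87 ± 0.0789 and 0.87 ± 0.0791 in the comparisons with laminin and no coating (edgeR adjusted p = 0.000337 and 0.000327). Without the block the edgeR adjusted p-values of Insig1 were 0.826, 0.742 and 0.308.

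Insig2, the second retention protein, stood at 12.7, 10.7 and 10.7 CPM in suspension, at 14.6, 11.9 and 12.5 on fibronectin, at 13.28, 14.8 and 14.4 on laminin and at 12.6, 11.9 and 12.7 on uncoated plastic. All laminin libraries were above all suspension and uncoated libraries. Insig2 rose by 0.33 ± 0.0953 on laminin against suspension with the block (edgeR adjusted p = 0.0223), and without it the change of 0.32 ± 0.107 had an adjusted p of 0.0577. The call held in 2 of 6 fits leaving out 1 library. For laminin minus no coating its change was 0.18 ± 0.0967 in the attached libraries, with an edgeR adjusted p of 0.746. It was the only member whose laminin and uncoated libraries did not overlap, as was the case for 3.58% of all genes.

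Stard4, a carrier that moves cholesterol between membranes, stood at 84.3, 74.0 and 72.2 CPM on fibronectin, at 70.2, 50.8 and 52.4 on laminin, at 66.2, 56.8 and 51.7 on uncoated plastic and at 73.2, 45.6 and 64.0 in suspension. Fibronectin did not overlap with laminin or with uncoated plastic. Stard4 fell by 0.46 ± 0.0641 on laminin against fibronectin in the attached libraries (edgeR adjusted p = 0.00565), and rose by 0.39 ± 0.108 on fibronectin against suspension in the blocked fit (0.0277). The first call was lost without fibronectin or laminin replicate 2, and the second held in 2 of 6 fits leaving out 1 library.

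Srebf1 stood at 203, 106 and 149.5 CPM in suspension, at 143, 99.8 and 148 on fibronectin, at 133, 98.4 and 161 on laminin and at 136, 105 and 163 on uncoated plastic. Srebf2 stood at 316, 221 and 288 CPM in suspension, at 272, 223 and 287 on fibronectin, at 245, 206 and 314 on laminin and at 256, 216 and 305 on uncoated plastic. Scap stood at 147, 156 and 153 CPM in suspension, at 152, 153 and 167 on fibronectin, at 146, 161 and 193 on laminin and at 154, 163 and 190.4 on uncoated plastic. The 4 groups overlapped for each of these genes, and none passed in any of the 6 comparisons in the unblocked, blocked or attached-library fits. Their changes for fibronectin minus no coating in the attached libraries were -0.03 ± 0.0552 for Srebf1, 0.03 ± 0.0561 for Srebf2 and -0.08 ± 0.0545 for Scap.

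**Figure D3:**
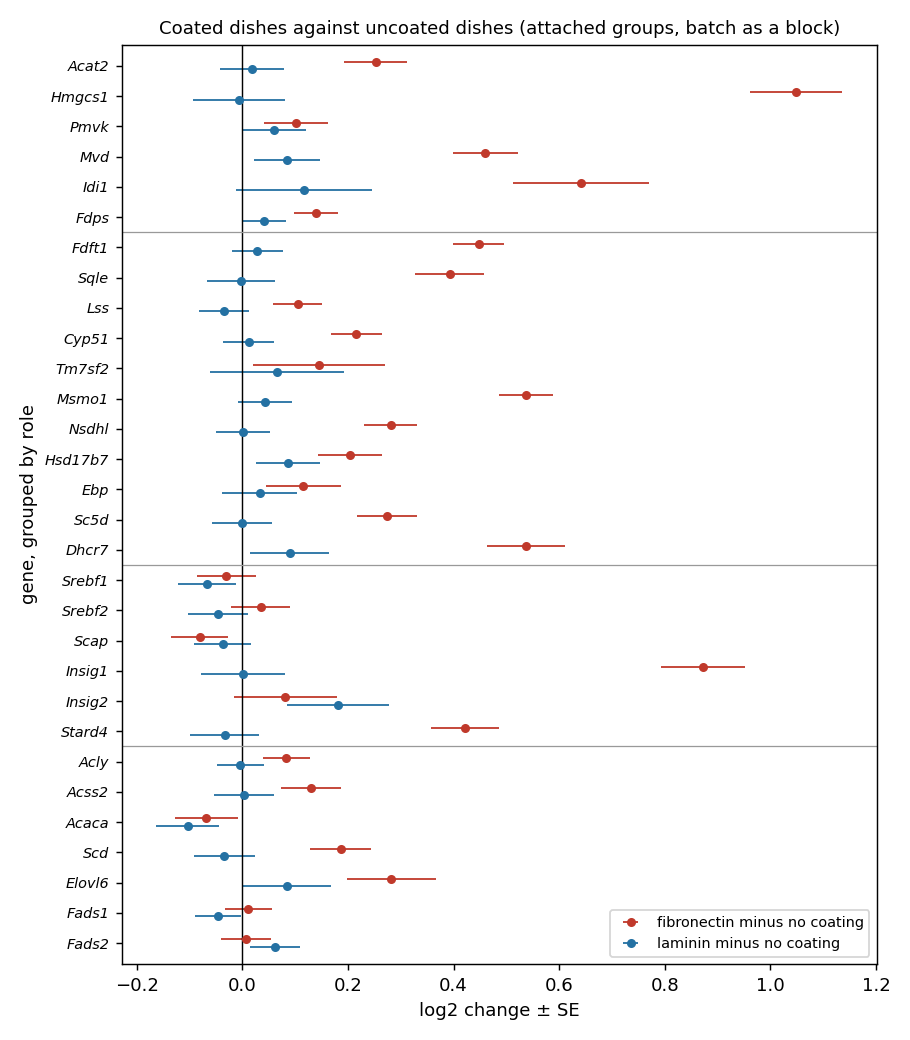
Points are log2 changes with SE bars from the edgeR fit with the batch block to the 9 attached libraries, red for fibronectin minus no coating and blue for laminin minus no coating, with genes by role. Hmgcs1 at 1.05 and Insig1 at 0.87 lie farthest right in red, while the blue points lie between -0.10 and 0.18.

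No member passed between laminin and uncoated plastic. In laminin minus no coating, 0 of the 30 passed in edgeR without the block, with it, or in the attached libraries, where 0% of all tested genes passed. DESeq2 called 0, and no member had an unadjusted p under 0.05 in any of the 3 edgeR fits. The estimates in the attached libraries lay between -0.10 ± 0.0594 for Acaca and 0.18 ± 0.0967 for Insig2. For Hmgcs1 the estimate was -0.01 ± 0.0870 and for Insig1 0.00 ± 0.0795.

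Of the 7 fatty acid genes, Elovl6, Acaca and Fads1 fell on all 3 surfaces against suspension with the block, Acss2 rose on fibronectin, and Acly, Scd and Fads2 did not pass. Elovl6, which lengthens palmitate, stood at 170.3, 99.2 and 143 CPM in suspension, at 88.9, 73.3 and 62.7 on fibronectin, at 90.1, 67.8 and 47.1 on laminin and at 87.2, 58.8 and 45.5 on uncoated plastic. Every suspension library was above every library on a surface. In the unblocked edgeR fit to 12 libraries Elovl6 was the only member called, and unblocked DESeq2 also called Acaca on laminin. It fell by 0.995 ± 0.301 on laminin (edgeR adjusted p = 0.0419, where 6.96% of all genes were called lower) and by 1.07 ± 0.301 on uncoated plastic (0.0412, where 4.10% were). Those calls were lost without suspension replicate 1 or 3, without replicate 2 or 3 of the surface group, and without batch 3, with edgeR adjusted p-values up to 0.125. With the block the changes of Elovl6 were -1.03 ± 0.175 and -1.12 ± 0.175 (edgeR adjusted p = 0.00224 and 0.00206). On fibronectin Elovl6 changed by -0.83 ± 0.300 without the block (0.104) and by -0.84 ± 0.174 with it (0.00834). All 3 blocked calls held whichever 1 library was left out, but the fibronectin call was lost without batch 1 or batch 2.

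Acaca, the carboxylase that commits acetyl-CoA to fatty acids, stood at 155, 121 and 141 CPM in suspension, at 120.5, 102 and 108 on fibronectin, at 125, 95.0 and 111 on laminin and at 122, 114 and 113 on uncoated plastic. The fibronectin libraries lay just below the lowest suspension library, and the other groups overlapped with suspension. Acaca fell with the block on all 3 surfaces, by 0.30 ± 0.0637, 0.34 ± 0.0638 and 0.23 ± 0.0638 (edgeR adjusted p = 0.00942, 0.00375 and 0.0206). The last call was lost without uncoated replicate 1 or 3 and without any 1 batch, the fibronectin call without batch 1 or 2, and the laminin call without batch 2.

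Fads1, a desaturase that makes polyunsaturated fatty acids, stood at 639, 527 and 635 CPM in suspension, at 468, 423 and 534 on fibronectin, at 460.2, 394 and 554 on laminin and at 456, 421 and 558 on uncoated plastic. It was lower on each surface than in suspension within each batch, although the groups overlapped. With the block Fads1 fell by 0.30 ± 0.0529 on fibronectin, 0.36 ± 0.0529 on laminin and 0.31 ± 0.0529 on uncoated plastic (edgeR adjusted p = 0.00404, 0.00117 and 0.00288), and all 3 calls held whichever 1 library was left out. All 3 were lost without batch 2, and the fibronectin call also without batch 1. Fads2, the partner desaturase encoded by a neighbouring gene, changed by -0.07 ± 0.0728, -0.02 ± 0.0728 and -0.08 ± 0.0729 and passed in none.

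Acss2, which makes acetyl-CoA from acetate, moved the other way. It stood at 88.6, 38.9 and 58.5 CPM in suspension, at 91.4, 53.2 and 81.0 on fibronectin, at 86.3, 47.5 and 78.8 on laminin and at 79.8, 51.2 and 76.7 on uncoated plastic. The groups overlapped, and replicate 2 was the lowest in all of them. Acss2 rose by 0.35 ± 0.0910 on fibronectin against suspension with the block (edgeR adjusted p = 0.0207), a call that held in 2 of 6 fits leaving out 1 library. Acly, which makes acetyl-CoA from citrate, and Scd, which desaturates stearate, passed in no comparison in the unblocked, blocked or attached-library fits. Scd had the widest spread of the 30 in suspension, from 87.5 to 271 CPM. Among the surfaces, no fatty acid member passed in any of these fits.

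**Figure D4:**
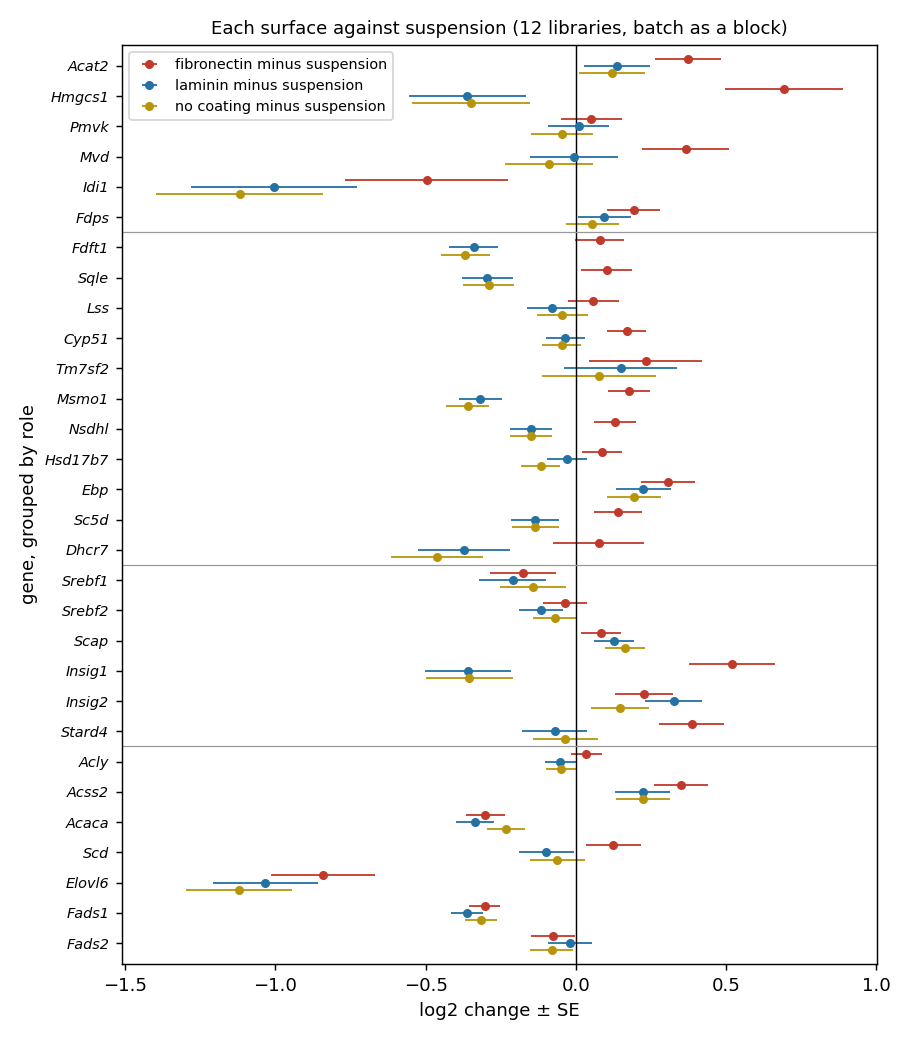
Points are log2 changes with SE bars from the edgeR fit with the batch block to 12 libraries, for fibronectin (red), laminin (blue) and uncoated plastic (yellow) minus suspension. Elovl6 lies at -0.84, -1.03 and -1.12, and Hmgcs1 and Insig1 lie right of 0 on fibronectin (0.69 and 0.52) and left of 0 on the other surfaces.

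Against suspension with the block and all 12 libraries, members were called lower in shares near those of all genes. On laminin and uncoated plastic a smaller share of members than of all genes was called higher, and more members were without suspension replicate 1. Fibronectin gave 0 calls in edgeR without the block, against 9.67% of all genes, with 4 members at an unadjusted p under 0.05 and 1 call, Elovl6, in DESeq2. With the block, 6 rose and 3 fell on fibronectin, against 16.6% and 12.1% of all genes. On laminin 1 rose and 7 fell, against 22.4% and 20.8%, and on uncoated plastic 0 rose and 8 fell, against 20.1% and 18.7%. Without batch 2, no blocked call was left on fibronectin, and Elovl6, Insig1 and Msmo1 were the calls on laminin and on uncoated plastic. The 7 that fell on laminin were Acaca, Elovl6, Fads1, Fdft1, Idi1, Msmo1 and Sqle, and the 8 on uncoated plastic were these and Dhcr7. Hmgcs1 rose by 0.69 ± 0.195 on fibronectin (edgeR adjusted p = 0.028), and its changes of -0.36 ± 0.195 on laminin and -0.35 ± 0.196 on uncoated plastic did not pass (0.16 and 0.181). The Hmgcs1 call was lost without fibronectin replicate 2 or 3. By CPM, 6 members were higher and 4 lower on fibronectin than in suspension in all 3 batches, against 25.4% and 34.4% of all genes. The counts were 2 and 9 on laminin, against 30.1% and 31.0%, and 1 and 9 on uncoated plastic, against 25.9% and 32.1%. Groups without overlap numbered 2, 3 and 2 members on the 3 surfaces, against 40.6%, 44.9% and 41.1% of all genes. With library totals in place of TMM factors, 4 members rose and 3 fell on fibronectin, and all genes split into 1143 higher and 1499 lower in place of 1664 and 1208. The fibronectin count with the block rested on single libraries, with 17 without suspension replicate 1, 5 without suspension replicate 2, and 3 without fibronectin replicate 2 or 3. Without suspension replicate 1 the laminin count was 13, with Acat2, Acss2, Ebp, Fdps, Insig2, Mvd and Tm7sf2 called higher. Without suspension replicate 2 no member was called higher on laminin, and without laminin replicate 3 the laminin count was 5. On uncoated plastic Acat2, Acss2, Ebp and Fdps were called higher without suspension replicate 1. The uncoated count was 13 without suspension replicate 2, with Scap alone called higher, and 4 without uncoated replicate 3.

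The suspension libraries differed among themselves more in these genes than in most. The highest suspension library exceeded the lowest by a median of 1.70-fold over the 30 members, up to 3.09-fold for Scd, against a median of 1.14-fold over all tested genes. The corresponding medians were 1.32-fold on fibronectin (all genes 1.20), 1.49-fold on laminin (1.26) and 1.41-fold on uncoated plastic (1.28). Suspension replicate 1 was the highest and replicate 2 the lowest, with replicate 3 between, for 29 of the 30, all but Scap, against 33.7% of all genes. That order was seen in 12 members on fibronectin (10.9%), 12 on laminin (8.85%) and 10 on uncoated plastic (7.18%). The cause of this spread was not tested, and it enters every comparison with suspension.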

How the data were processed

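RNA of 12 cultures was sequenced from Illumina TruSeq total-RNA libraries of the stranded type, per the labels' protocols. The authors deposited 1 table of whole-number counts per library, keyed by Entrez gene, with no normalization. The submitters' processing notes name the rat build rn4, while the aligner, the counter, the use of strand and the handling of reads shared by near-identical copies, such as Scd and Scd2, are not given in the sources used for this work. Symbols were matched for 16761 of 16924 identifiers from RefSeq.

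Counts were analysed in R 4.3.3 with edgeR 4.0.16 (TMM factors between 0.962 and 1.03, filterByExpr, glmQLFit, glmQLFTest) in a model of 4 group means, with DESeq2 1.42.0 as an alternative. Residual degrees of freedom were 8 without and 6 with the batch block, and the fits were tested on simulated data. The simulation gave all 4 groups the same batch shifts. It therefore cannot show how the blocked 12-library fit behaves where suspension shares them only weakly. Same-numbered libraries share a batch number and were treated as paired. Over all tested genes, their deviations from the group means correlated at a median of 0.675 among attached libraries and 0.197 with suspension libraries. CPM is a gene's count times 1000000 over the library total. Values in every library were given for members called in either 12-library fit, the largest changes and the regulators. Members and lists were chosen with earlier results of these data known. Promoters came from RefSeq, build GRCr8. A further motif that was searched is not reported here.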

Additional observations from a re-analysis of the deposited data

Results flagged for a closer look

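The CPM of Insig1 was higher on fibronectin than in suspension in all 3 batches and lower on laminin than in suspension in all 3 batches. Of these, the rise on fibronectin passed with the batch block, although its batch 1 log2 ratio was 0.03. The change of -0.36 ± 0.143 on laminin did not pass (edgeR adjusted p = 0.0671), and its batch 2 log2 ratio was -0.05. The log2 change between these surfaces, laminin minus fibronectin, was -0.85 (edgeR adjusted p = 0.826 without the batch block and 0.0397 with it).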

How the results depend on the processing

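Counts of called members are given here out of 30. Against suspension, adding the replicate block gave 9 calls on fibronectin, 8 on laminin and 8 on uncoated plastic in place of 0, 1 and 1. Fits to the 2 groups alone gave 1, 0 and 0, DESeq2 gave 1 on fibronectin and 2 on laminin, and without batch 3 uncoated plastic gave 0. Leaving out 1 library gave 0 to 2 calls on laminin and 0 to 1 on uncoated plastic. Between surfaces, the block gave 2 calls in laminin minus fibronectin and 2 in fibronectin minus no coating, in place of 0 and 0.

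The following were chosen after the data were seen. Without suspension replicate 1, Mvd, negative in both 12-library fits of laminin against suspension, was called higher there. With the block, fibronectin against suspension gave 4 calls without batch 1, 0 without batch 2 and 3 to 17 without 1 library. Laminin gave 3 without batch 2 and 5 to 13 without 1 library, and uncoated plastic gave 3 and 4 to 13. Laminin minus fibronectin gave 1 with library totals, 0, 0 and 5 without batches 1, 2 and 3, 10 in the attached groups alone, and 0 to 1 without 1 library. Fibronectin minus no coating gave 0, 0 and 4 without batches 1, 2 and 3, 11 in the attached groups alone, and 0 to 1 without 1 library. In the attached groups alone, the 10 and 11 became 2 and 3 without batch 2, and ranged from 4 to 12 and from 4 to 13 without 1 library (7 without uncoated replicate 2). The causes of these changes were not tested.

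Each member had at least 1652 counts over the 12 libraries, and how far counting or the spread between 3 batches limits these tests was not tested. The handling of the suspension cells is not described in the labels.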

Other observations

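Some genes of sterol and fatty acid handling outside the 30 also differed between suspension and the surfaces. In edgeR without the block, 6.61% of all tested genes rose and 3.06% fell on fibronectin, 12.1% and 6.96% on laminin, and 8.48% and 4.10% on uncoated plastic. Of 15 tested genes of sterol uptake, transport and efflux, 1 rose and 1 fell on fibronectin, 3 rose and 1 fell on laminin and 2 rose on uncoated plastic in that fit. Mylip, a ubiquitin ligase gene, stood at 36.0, 27.4 and 29.8 CPM in suspension and between 55.2 and 75.2 CPM on the surfaces. It rose by 0.89 ± 0.0897 on fibronectin, 1.17 ± 0.0899 on laminin and 1.01 ± 0.0898 on uncoated plastic (edgeR adjusted p = 0.000144, 1.5e-05 and 4.89e-05). Of 27 other tested genes of fatty acid synthesis, activation and desaturation, 4 rose on fibronectin, 6 rose and 3 fell on laminin and 4 rose on uncoated plastic. Fads3, a desaturase-like neighbour of Fads1, rose by 0.69 ± 0.0927, 0.57 ± 0.0926 and 0.52 ± 0.0926 on the 3 surfaces (edgeR adjusted p = 0.00107, 0.00263 and 0.00586). Of 24 tested genes of fatty acid uptake and oxidation, 1, 3 and 2 rose on the 3 surfaces and 0 fell. Acaa2, a mitochondrial thiolase of fatty acid oxidation, rose by 0.51 ± 0.0998, 0.56 ± 0.0998 and 0.54 ± 0.0999 (edgeR adjusted p = 0.0103, 0.00428 and 0.00666).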
